A study of Mus musculus with 11 samples.

Results

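Egr1, Egr2, Egr3, Nr4a1, Nr4a2, Nr4a3, Nab1, Nab2, Ier2 and Ier3 are 10 genes tied to the early transcriptional response to receptor signals. They were found by symbol in the authors' deposited table, each on 1 row of 37224 gene rows. They were taken by name and not by a threshold on their values, but they were chosen with earlier results of these data known. The shares of all genes given below are therefore set beside them as a description and not as a test. RNA-seq was used to compare mouse leukaemias of the T cell lineage (T-ALL) grown from blood progenitors with or without Utx, an X-linked enzyme (gene Kdm6a) that removes repressive methyl groups from histone H3 lysine 27. All groups were C57/BL6 cells: progenitors carrying the cKit receptor were infected with a retrovirus that expresses Notch1-IC, the active inner part of the Notch1 receptor, and were injected into recipient mice, per the labels. The knockout group (Utx-/Y) held 5 samples, 2 from bone marrow and 3 from spleen, and the wild-type group (Utx+/+ or Utx+/Y) held 6 samples, 2 from bone marrow and 4 from spleen. Of these samples 1 knockout sample, from bone marrow, and 2 wild-type samples, 1 from bone marrow and 1 from spleen, were repeat runs. The labels number bone marrow samples as replicate 1 only, and spleen samples as replicates 1 to 3, in each group. Both groups therefore share the Notch1-IC transgene, and knockout donors were male, while the label of the wild-type group allows both sexes, so genotype and sex cannot be told apart here. The age of the animals, the Cre line, the promoter of the transgene and the number of donors are not stated in the labels.

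Egr1, Egr2 and Egr3 are zinc finger transcription factors that appear within minutes of a receptor signal and pass it on to later genes. In thymocytes and T cells they respond to the T cell receptor through the ERK and calcium pathways. Nab1 and Nab2 bind Egr proteins and mostly repress what they activate, and Nab2 is itself a target of Egr factors, which closes a feedback loop. Nr4a1 (Nur77), Nr4a2 (Nurr1) and Nr4a3 (Nor1) are orphan nuclear receptors that act without a known ligand and are widely read as a trace of T cell receptor signalling; Nr4a1 and Nr4a3 are also linked to the death of thymocytes under strong signals. Ier2 and Ier3 are immediate-early response genes, and Ier3 is known for its part in cell survival.

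The authors had summed their reads by genotype, so each gene had 1 count in the Utx knockout pool (KO pool, 106445530 counts) and 1 in the Utx wild-type pool (WT pool, 108015222 counts). The spread between animals is therefore unknown, no difference below was checked against replicates, and a high count may come from any number of the tumours in a pool. Which samples and repeat runs entered each pool is not stated. The mix of bone marrow and spleen in each pool is therefore unknown and cannot be told apart from genotype. Levels are given as counts per 1000000 counts of the pool (CPM), and differences as the log2 ratio of knockout over wild-type. Each interval is an exact 95% interval that covers counting error only. A gene is called higher or lower where its combined count was at least 100, the 2 levels lay 2-fold or more apart and 0 was outside the interval. The targeted gene Kdm6a stood at 10.5 CPM in the KO pool and 58.3 CPM in the WT pool (log2 ratio -2.48, -2.57 to -2.38). The T cell markers Cd3d, Cd3e, Cd3g, Lck, Zap70, Bcl11b, Tcf7, Thy1, Cd2 and Ptcra all had counts in both pools, at 23.3 to 968 CPM in the KO pool and 34.3 to 960 CPM in the WT pool.

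Of the 10 genes, 5 were higher in the KO pool, none was lower and 5 were neither. Over all 13833 genes with at least 100 combined counts, 11.2% were higher and 5.36% were lower. The higher genes were Nr4a3, Nr4a1, Ier3, Egr2 and Nab2, at log2 ratios from 1.57 down to 1.04. All 10 genes passed the minimum of 100 counts, and their median log2 ratio was 0.94, against -0.07 for all genes that passed. The interval lay above 0 for 8 of them, which held for 37.0% of all genes that passed the minimum. With a 1.5-fold minimum 7 of the 10 genes were higher, against 18.9% of all genes. Of the 10 genes, 8 had a DEGseq q-value under 0.05 in the authors' deposited table, as had 67.8% of the 20904 genes tested there, so that share says little about these genes. Nr4a2 (q = 0.624) and Nab1 (q = 0.0657) were the exceptions in the authors' deposited table.

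**Figure D1:**
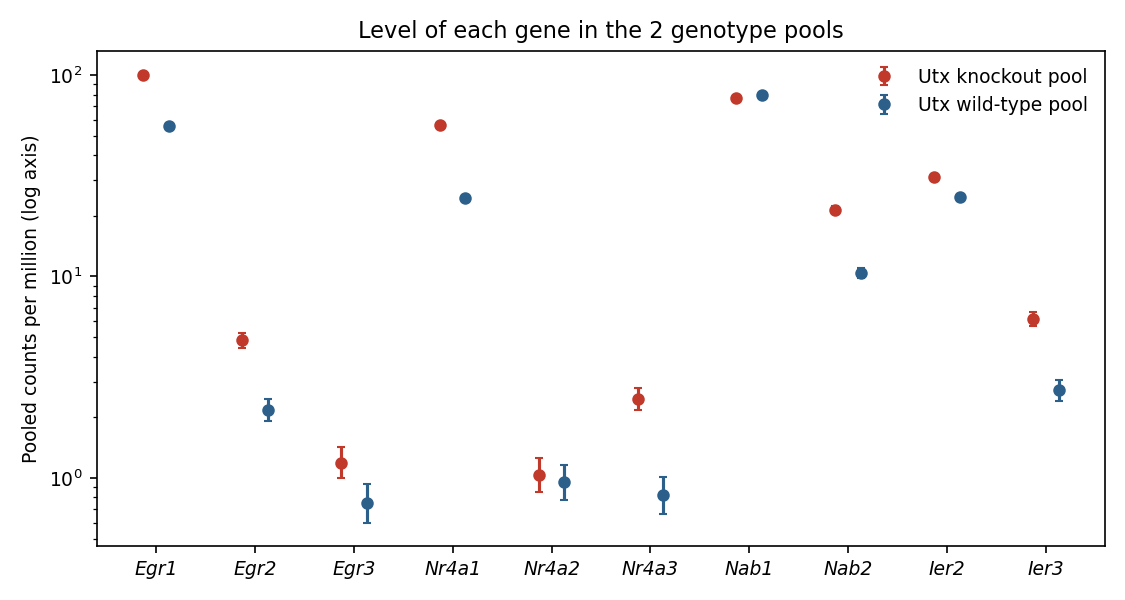
Level of each of the 10 genes in CPM of the pooled counts (log axis) in the KO pool (red) and the WT pool (blue); bars are exact 95% Poisson intervals and cover counting error only. Egr1, Nab1 and Nr4a1 are the highest in the KO pool, Egr3, Nr4a2 and Nr4a3 stay under 3 CPM, and the pools lie closest for Nab1 and Nr4a2.

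Egr1 was the most abundant of the 3 Egr genes and was not called. Egr1 (ENSMUSG00000038418, chromosome 18, 34859823 to 34864984, plus strand; positions here are on GRCm38, from GENCODE M21) had 10630 counts in the KO pool and 6062 in the WT pool, or 99.9 against 56.1 CPM. Its log2 ratio of 0.83 (0.79 to 0.88) is a 1.78-fold difference, under the 2-fold minimum, with an interval far from 0. Egr2, which restrains T cell activation and supports thymocyte selection (ENSMUSG00000037868, chromosome 10, 67535475 to 67542188, plus strand), had 513 against 235 counts, or 4.82 against 2.18 CPM. It was higher in the KO pool with a log2 ratio of 1.15 (0.92 to 1.38). Egr3, the closest partner of Egr2 in T cells (ENSMUSG00000033730, chromosome 14, 70077203 to 70082614, plus strand), had 127 against 81 counts. Its log2 ratio of 0.67 (0.26 to 1.09) overlapped those of both Egr1 and Egr2, so that at this depth the 3 Egr genes could not be set in order by Egr3. The interval of Egr2 lay above that of Egr1.

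The make-up of the Egr family was dominated by Egr1 in both pools. Egr1 held 94.3% (93.9 to 94.7) of the Egr1 to Egr3 counts in the KO pool and 95.0% (94.5 to 95.6) in the WT pool. Egr2 held 4.55% (4.17 to 4.95) and 3.68% (3.24 to 4.18), and Egr3 1.13% (0.940 to 1.34) and 1.27% (1.01 to 1.58). These shares need no depth scaling, and the intervals of the 2 pools touched or overlapped for each of the 3 genes. Such overlap does not show equal shares, as the log2 ratio interval of Egr2 (0.92 to 1.38) lay above that of Egr1 (0.79 to 0.88). Summed, the family stood at 106 against 59.0 CPM, for a log2 ratio of 0.84 (0.80 to 0.89), which follows Egr1.

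The other Egr gene, Egr4, stood on the opposite side. Egr4, best known from neurons, had 23 counts in the KO pool and 77 in the WT pool, a log2 ratio of -1.70 (-2.46 to -1.03). Its combined count only just met the minimum. Wt1, a zinc finger factor that binds similar DNA, had no count in either pool.

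The promoter of Egr2 is shown because it holds the kind of element through which serum and ERK signals reach immediate-early genes. The stretch covers the 250 bases before a RefSeq start of Egr2 (build GRCm38.p6, chr10:67537619-67537868, plus strand, read 5′ to 3′). The stretch lies before the principal start of Egr2 in GENCODE M21, at 67537869, inside the span of the gene. The window of a RefSeq start further upstream (67535249 to 67535548) held none of the motifs searched. Capitals mark a CArG box, the site of serum response factor, and the letters TGACG on either strand, a half-site of the cAMP response element.

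Egr2 promoter: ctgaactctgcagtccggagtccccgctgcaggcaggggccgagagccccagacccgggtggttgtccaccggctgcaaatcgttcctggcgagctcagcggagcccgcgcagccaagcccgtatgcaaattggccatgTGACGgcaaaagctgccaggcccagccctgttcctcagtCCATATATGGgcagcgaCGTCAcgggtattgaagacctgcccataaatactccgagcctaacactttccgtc

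The stretch holds 1 CArG box and 2 half-sites. Among all 32851 RefSeq promoter windows of 300 bases, 1.63% hold a CArG box and 20.8% hold the half-site. A match is a description of the letters and not a bound site. No RefSeq sequence from the table used is shown for Egr1, Egr3 or Ier2.

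Nr4a1 and Nr4a3 were higher in the KO pool and Nr4a2 was not called. Nr4a1 (ENSMUSG00000023034, chromosome 15, 101254269 to 101274795, plus strand) had 5988 counts in the KO pool and 2648 in the WT pool, or 56.3 against 24.5 CPM, for a log2 ratio of 1.20 (1.13 to 1.26). Nr4a3 (ENSMUSG00000028341, chromosome 4, 48045153 to 48086447, plus strand) had 262 against 89 counts, or 2.46 against 0.824 CPM. Its log2 ratio of 1.57 (1.23 to 1.94) was the highest of the 10 genes, and its interval overlapped that of Nr4a1. Nr4a2 (ENSMUSG00000026826, chromosome 2, 57106830 to 57124003, minus strand) had 110 against 103 counts, or 1.03 against 0.954 CPM. Its interval, -0.28 to 0.52 around a log2 ratio of 0.12, held 0 and lay below those of the other 2 receptors. Counting error thus leaves room for a difference of up to 0.52 on the log2 scale in Nr4a2.

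Within the family, the share of Nr4a2 was smaller in the KO pool. It held 1.73% (1.42 to 2.08) of the Nr4a1 to Nr4a3 counts there and 3.63% (2.97 to 4.38) in the WT pool, with intervals that did not overlap. Nr4a1 held 94.2% (93.5 to 94.7) and 93.2% (92.3 to 94.1), and Nr4a3 4.12% (3.64 to 4.64) and 3.13% (2.52 to 3.84), in each case with overlapping intervals. The summed family stood at 59.7 against 26.3 CPM, for a log2 ratio of 1.18 (1.12 to 1.25). For Rxra and Rxrb, nuclear receptors that pair with Nr4a1 and Nr4a2, the log2 ratios were 0.21 (-0.01 to 0.43) and -0.48 (-0.54 to -0.41). Neither Rxr gene was called, and Rxrg had 0 counts in the KO pool and 1 in the WT pool.

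**Figure D2:**
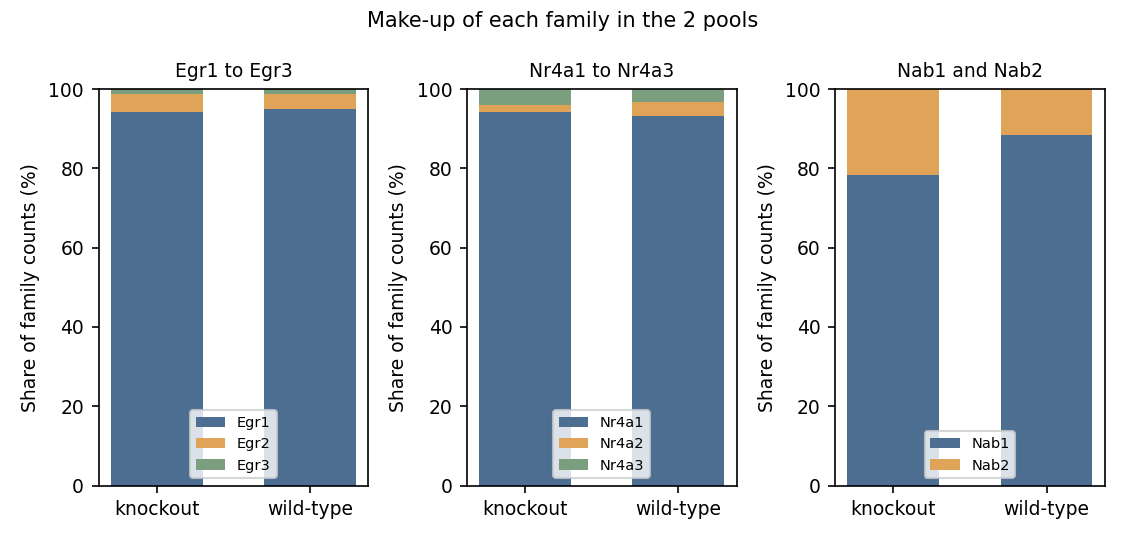
Share of each family's pooled counts (%, bars start at 0) held by each gene in both pools, for Egr1 to Egr3, Nr4a1 to Nr4a3, and Nab1 and Nab2. Egr1 and Nr4a1 hold more than 90% of their families in both pools, and the share of Nab2 is 21.7% in the KO pool against 11.6% in the WT pool.

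Promoter stretches of the 3 Nr4a genes are set side by side because 2 of these genes were called higher and 1 was not called. Each stretch lies before a RefSeq start and holds no exon base of GENCODE M21: 250 bases for Nr4a1 (chr15:101266596-101266845, plus strand), 250 for Nr4a2 (chr2:57124004-57124253, minus strand) and 98 for Nr4a3 (chr4:48045055-48045152, plus strand), all RefSeq sequence of GRCm38.p6, written 5′ to 3′ on the strand of the gene. Nr4a1 has 2 principal starts in GENCODE M21, at 101254269 and 101266846, and its stretch lies before the second, inside the span of the gene. Capitals mark TGACG on either strand and, in Nr4a1 and Nr4a2, a match to the Egr site GCGNGGGCG on either strand.

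Nr4a1 promoter: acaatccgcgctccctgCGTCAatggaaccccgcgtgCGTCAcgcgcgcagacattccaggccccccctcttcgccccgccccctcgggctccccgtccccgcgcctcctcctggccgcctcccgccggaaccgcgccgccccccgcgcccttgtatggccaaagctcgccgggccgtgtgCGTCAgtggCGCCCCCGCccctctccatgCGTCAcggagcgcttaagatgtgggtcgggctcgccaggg
Nr4a2 promoter: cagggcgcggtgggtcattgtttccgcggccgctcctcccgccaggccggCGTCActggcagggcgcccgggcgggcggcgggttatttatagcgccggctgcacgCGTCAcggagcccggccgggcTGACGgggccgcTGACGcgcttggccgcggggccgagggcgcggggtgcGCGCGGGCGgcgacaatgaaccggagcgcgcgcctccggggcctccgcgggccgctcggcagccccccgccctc
Nr4a3 promoter: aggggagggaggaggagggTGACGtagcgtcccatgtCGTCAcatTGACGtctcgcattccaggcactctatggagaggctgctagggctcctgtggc

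The half-site occurs 4 times in the stretch of Nr4a1, 4 times in that of Nr4a2 and 3 times in the shorter stretch of Nr4a3. The Egr site occurs once in Nr4a1 and once in Nr4a2, and in 5.55% of all promoter windows. The full cAMP response element TGACGTCA, which contains the half-site on both strands and occurs in 1.79% of windows, and the Nr4a response element AAAGGTCA, in 1.51%, were not found in any of the 11 windows of the 7 genes with an entry. The window of Nab1 held the Egr site 3 times and the half-site 1 time, and the windows of Nab2 and Ier3 held none of the 5 motifs searched. These counts describe letters in the windows and were not tested against the ratios.

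Nab2 was higher in the KO pool and Nab1 was near equal in the pools. Nab1 (ENSMUSG00000002881, chromosome 1, 52457294 to 52500679, minus strand) had 8220 counts in the KO pool and 8602 in the WT pool, or 77.2 against 79.6 CPM. Its log2 ratio was -0.04 with an interval from -0.09 to just under 0, and the sign turned under other scalings (0.04 with TMM, 0.02 with the median of ratios). Nab2 (ENSMUSG00000025402, chromosome 10, 127660918 to 127668568, minus strand) had 2283 against 1124 counts, or 21.4 against 10.4 CPM, for a log2 ratio of 1.04 (0.94 to 1.15) that lay close to the 2-fold minimum. The share of Nab2 in the counts of both genes was 21.7% (21.0 to 22.5) in the KO pool and 11.6% (10.9 to 12.2) in the WT pool, with intervals far apart.

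Nab2 shares sequence with genes on the opposite strand, and whether reads were counted by strand is not stated in the labels or the table. In GENCODE M21 its exons share 1050 bases with the antisense RNA Gm16229, 151 with Nemp1 and 40 with Stat6. All 3 had positive log2 ratios, 1.32 (1.09 to 1.57) for Gm16229, 1.29 (1.17 to 1.41) for Nemp1 and 0.77 (0.71 to 0.82) for Stat6, a transcription factor of interleukin 4 signalling. The labels' protocols describe strand-marked libraries, but the counts do not show whether reads in the shared bases were kept apart by strand. The part of such reads in the ratio of Nab2 was not tested. None of the other 9 genes overlaps another gene in that annotation.

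The balance of Egr factors over Nab genes differed between the pools. Counts of Egr1 to Egr3 were 1.07 times those of Nab1 and Nab2 in the KO pool (1.04 to 1.10) and 0.656 times in the WT pool (0.635 to 0.677). For Egr1 over Nab2 alone, a pair chosen after the values were seen, the ratio had the other order, 4.66 (4.45 to 4.87) in the KO pool and 5.39 (5.06 to 5.75) in the WT pool. Both ratios compare the pools and need no depth scaling. Because transcript lengths differ, neither is a ratio of molecules.

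Ier3 was higher in the KO pool and Ier2 was not called. Ier3 (ENSMUSG00000003541, chromosome 17, 35821684 to 35822923, plus strand) had 656 counts in the KO pool and 294 in the WT pool, or 6.16 against 2.72 CPM, for a log2 ratio of 1.18 (0.98 to 1.38). Ier2 (ENSMUSG00000053560, chromosome 8, 84661331 to 84662852, minus strand) had 3327 against 2664 counts, or 31.3 against 24.7 CPM. Its log2 ratio of 0.34 (0.27 to 0.42) lay below that of Ier3 without overlap and inside the range of the middle 50% of all genes, -0.38 to 0.37.

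**Figure D3:**
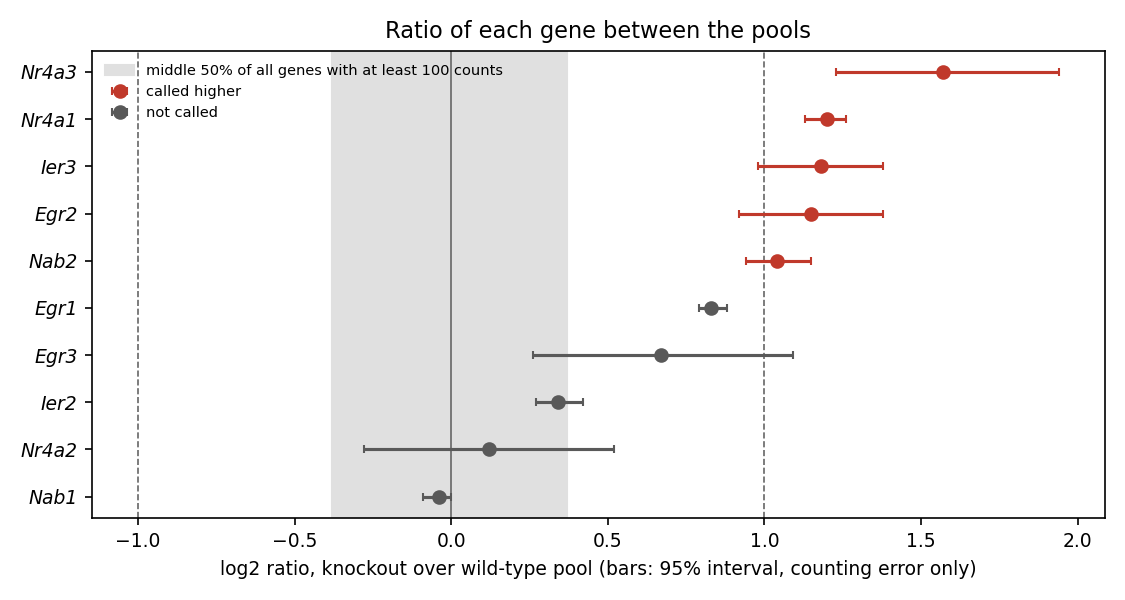
Log2 ratio of knockout over wild-type for each of the 10 genes, with exact 95% intervals (counting error only); the grey band is the middle 50% of all genes with at least 100 combined counts, and dashed lines mark a 2-fold difference. The 5 genes called higher (red) lie from 1.04 to 1.57, and Ier2, Nr4a2 and Nab1 lie in the grey band.

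Levels per kilobase of exon, which allow genes to be compared, placed 4 genes close together in the KO pool. Egr1 stood at 22.3 CPM per kilobase, Nr4a1 at 21.0, Ier2 at 20.5 and Nab1 at 19.2, where the counting intervals of Nr4a1 (20.5 to 21.5) and Ier2 (19.8 to 21.2) overlapped. In the WT pool the order was Nab1 at 19.8, Ier2 at 16.2, Egr1 at 12.5 and Nr4a1 at 9.15, with no overlap between neighbours. Nab2, Ier3 and Egr2 followed in both pools, at 8.31, 5.45 and 1.51 in the KO pool and 4.03, 2.41 and 0.683 in the WT pool. The lowest were Nr4a3 (0.430), Egr3 (0.291) and Nr4a2 (0.276) in the KO pool, and Nr4a2 (0.255), Egr3 (0.183) and Nr4a3 (0.144) in the WT pool. Neighbours Egr3 and Nr4a2 overlapped in both pools, as did Egr3 and Nr4a3 in the WT pool. The lengths are those of GENCODE M21, which is not the annotation of the counts.

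Genes that lead to Egr induction were called higher no more often than all genes, and the 2 higher ones were Elk3 and Rasgrp1. Of 22 kinases and transcription factors of the ERK, serum response and calcium routes, 2 were higher, none was lower and 20 were neither, beside 11.2% of all genes higher and 5.36% lower. Their median was -0.07, the same as for all genes; with TMM both medians were 0.01. Elk3 is an ETS factor that works with serum response factor (log2 ratio 1.20, 1.08 to 1.31; 2023 against 896 counts), and Rasgrp1 activates Ras downstream of the T cell receptor (1.02, 0.97 to 1.06; 10932 against 5479 counts). The lowest were Elk4, a relative of Elk3, at -0.68 (-0.72 to -0.64), and Nfatc1, a calcium-driven factor, at -0.63 (-0.69 to -0.57). None of the 12 NuRD subunit genes, whose complex Nab proteins recruit, was called, beside 16.6% of all genes called in either direction. Their median was -0.21, and they ranged from Mta3 at 0.26 to Mbd3 at -0.62, with Chd3 at -0.04 and Rbbp7 at -0.47.

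The other immediate-early genes called higher included Atf3, Rgs1, Fosl2, Klf4 and Junb. Of 31 with at least 100 counts, 7 were higher and 1 was lower, 23 were neither, and the median was 0.39, where all genes had 11.2% higher, 5.36% lower and a median of -0.07. Atf3, a stress-induced factor, was at 3.63 (3.22 to 4.09), and Rgs1, a brake on chemokine receptors, at 2.53 (2.30 to 2.77). Fosl2 stood at 2.07, Klf4 at 1.71, Junb at 1.36, the RNA-binding protein gene Zfp36l1 at 1.30 and the kinase gene Plk3 at 1.02. Fosb was lower at -1.94 (-2.60 to -1.36) on 29 against 114 counts, and the kinase gene Sik1 was at -0.81.

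Among 33 measured targets of Egr or Nr4a factors and activation genes of T cells, 10 were higher, 3 were lower and 20 were neither, against 11.2% higher and 5.36% lower among all genes. The median was 0.27. The inhibitory receptor genes Ctla4 and Lag3 had 5119 against 479 and 3542 against 431 counts, log2 ratios of 3.44 (3.30 to 3.58) and 3.06 (2.92 to 3.21). Dgka, a kinase that damps diacylglycerol signals and a known Egr2 target, was at 135 against 17.1 CPM, for a log2 ratio of 2.99 (2.92 to 3.06). The ERK phosphatase genes Dusp4 and Dusp6 were at 2.07 and 1.56, and the death ligand gene Fasl was at 2.87 on 162 against 22 counts. Irf4, Icos, Il2ra and Ikzf2 were at 1.71, 1.71, 1.28 and 1.07. The lower genes were Gpr83, a receptor found on regulatory T cells, at -3.57 (-3.85 to -3.31; 124 against 1495 counts), Tnfrsf4 (OX40) at -1.46 and Ndrg1, an Egr2 target linked to anergy, at -1.42. Cd69, Cd5 and Nfil3, also in the list, were at 0.70, -0.28 and 0.75 and were not called. Among uncalled genes of the list with at least 100 counts, Tnfrsf9 was the highest at 0.86 and Spry1 the lowest at -0.98. Dusp2 at -0.95 and Dgkz at -0.76 were also not called.

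**Figure D4:**
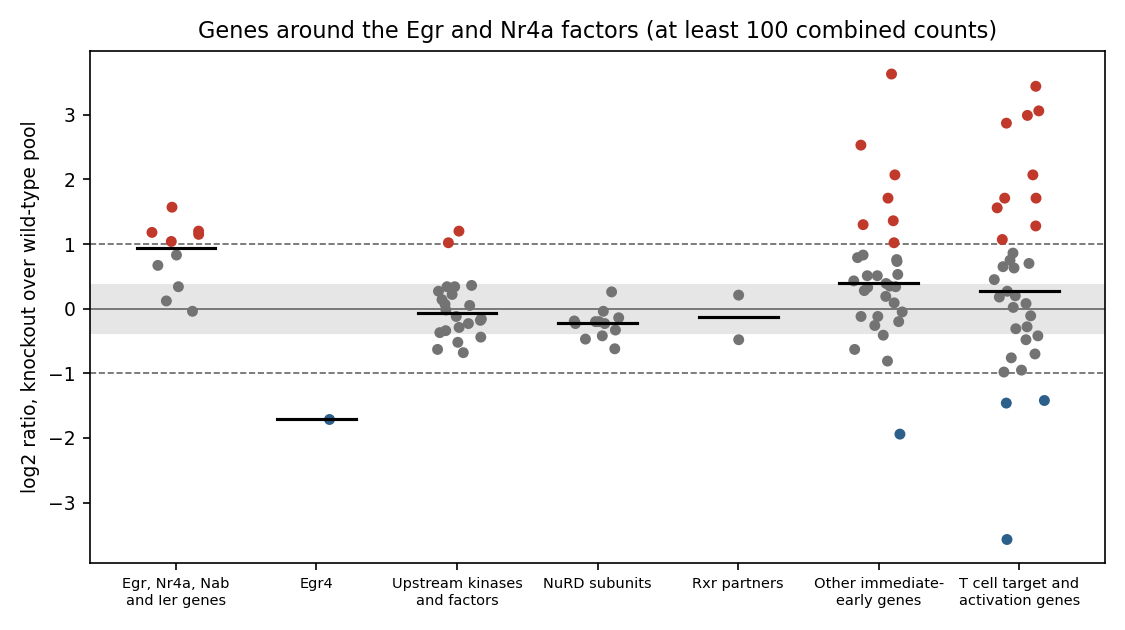
Log2 ratio of knockout over wild-type for each gene with at least 100 combined counts, by group; red points were called higher, blue lower, grey neither, black bars are medians, the grey band is the middle 50% of all genes and dashed lines mark a 2-fold difference. The median is 0.94 for the 10 genes, -0.07 for upstream kinases and factors, -0.21 for NuRD subunits, 0.39 for other immediate-early genes and 0.27 for T cell target and activation genes.

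Markers of several other cell types also differed between the pools, in both directions. Over all genes with at least 100 combined counts, 11.2% were higher and 5.36% were lower, with a median of -0.07. Of 11 macrophage and monocyte markers 10 were higher and none was lower, with a median of 1.59 and a summed level of 362 CPM in the KO pool against 131 in the WT pool. Single markers of that list ranged from 3.24 to 95.8 CPM and from 0.713 to 37.0 CPM, and none was at 0. Egr1, Egr2, Nr4a1 and Ier3 are also expressed in activated macrophages, and the part of such cells in the ratios was not tested. In these bulk samples, more cells of a type and more RNA per cell cannot be told apart.

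The counts of called markers below stand beside 11.2% higher and 5.36% lower among all genes. Erythroid markers summed to 25800 against 12908 CPM with 4 of 9 higher, and neutrophil markers to 2511 against 2070 CPM with 3 of 10 higher. Of 6 NK and cytotoxic markers with enough counts 5 were higher, with a median of 2.01, although their sum, mostly Gzma, was 233 against 246 CPM. Megakaryocyte markers summed to 22.3 against 8.92 CPM with 3 of 5 higher, and stromal and endothelial markers to 154 against 188 CPM with 3 of 9 higher and 1 lower. B cell markers summed to 7.14 against 11.0 CPM with none of 5 higher and 2 lower. T cell markers summed to 3317 against 3860 CPM, with none of 10 higher and 1 lower, Thy1 at -1.06, a call that ended with TMM scaling (-0.98). Under that scaling the B cell gene Cd79b and the globin gene Hbb-b1 became higher, at 1.06 and 1.08. No marker of any of these lists was at 0 in both pools, and their part in the ratios of the Egr, Nr4a, Nab and Ier genes was not tested.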

How the data were processed

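RNA-seq of 11 samples was used as 1 table that the authors made with DEGseq. The labels' protocols describe strand-marked libraries sequenced from one end over 50 bases. CASAVA, TopHat and mm9 appear in the submitters' processing notes, without versions. The annotation, the counting tool and its strand setting: not given in the sources used here. Both value columns hold counts that the authors pooled by genotype, per the file headers; the table's title gives the order of knockout and wild-type, and the level of Kdm6a fits it. DEGseq also gave the log2 fold changes, p-values and q-values that the authors deposited. The z-score column is the authors' DEGseq test score, per the file headers, and was not used. Columns of per-sample values that were left out number 0. With pooled counts alone, no test over samples, replicate block or left-out sample could be run. Rows without a value (13843) were taken as 0.

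CPM and log2 ratios (pseudocount 0.5) were computed here with the sum of gene rows as depth, using Python 3.11.15, scipy 1.17.1 and edgeR 4.0.16. Intervals are Clopper-Pearson for ratios and shares and Poisson for levels. Reads are not independent molecules, so they cover counting error only. For a gene at 0 the limit is 3 counts, or 0.0282 CPM (knockout) and 0.0278 CPM (wild-type). Simulated Poisson counts for this comparison covered 13833 genes: all 100 genes with a log2 change of 1.5 and all 100 with a change of 2 were recovered, and 0 unchanged genes were called. Those changes lay above the 2-fold minimum and only in genes with counts well above the minimum of 100. No spread between animals was simulated, so calls near either minimum, or calls that arise from such spread, were not tested. The genes and lists were chosen with earlier results of these data known. Named genes are the 10 genes of the report, Kdm6a and, from each pathway list, the 2 highest and 2 lowest with at least 100 counts and all called genes. Marker lists are given by counts and sums; the T cell markers are named as a check of the cell type. Cd69, Cd5, Nfil3, Tnfrsf9, Spry1, Dusp2, Dgkz, Wt1, Rxrg, Gzma, Cd79b, Hbb-b1 and the genes that overlap Nab2 were added after their values were seen. Promoters come from RefSeq windows (GRCm38.p6), with an entry for 7 of the 10 genes. Alternatives were upper quartile, median of ratios and TMM scaling, totals without mitochondrial and erythroid genes, a pseudocount of 5, combined counts of at least 20 or 500, and a 1.5-fold minimum. In a further alternative the authors' q-value under 0.05 replaced the interval, with the count and 2-fold minimums kept.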

Additional observations from a re-analysis of the deposited data

How the results depend on the processing

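The count of 5 higher and 0 lower genes among the 10 was also found under all 4 other scalings, a pseudocount of 5 and a combined count of at least 20. It was the same where the authors' q-value under 0.05 replaced the interval and the count and 2-fold minimums were kept. By that q-value alone, 8 of the 10 genes passed. A minimum of 500 combined counts removed Nr4a3 (1.57), which left 4, and a 1.5-fold minimum added Egr1 (0.83) and Egr3 (0.67), which made 7, beside 18.9% of all genes. With TMM, the log2 ratios moved by more than their interval reached to one side for Egr1 (0.91), Nr4a1 (1.28), Nab1 (0.04) and Ier2 (0.42). With the median of ratios they moved so for Egr1 (0.90), Nr4a1 (1.27) and Nab1 (0.02), and with totals without mitochondrial and erythroid genes for Egr1 (0.92), Nr4a1 (1.29), Nab1 (0.05) and Ier2 (0.43). Nab1 thus has no fixed sign. At a 1.5-fold minimum 2 upstream kinases and factors were higher and 2 lower, and 0 NuRD genes were higher and 1 lower. Of the other immediate-early genes 11 were higher and 3 lower, and of the T cell target and activation genes 15 were higher and 7 lower. Over all genes 18.9% were higher at that minimum, and the share that was lower was not computed. At 500 counts 0 other immediate-early genes were lower, as Fosb left. Without Egr1, the ratio of Egr to Nab counts was 0.0609 (KO pool) and 0.0325 (WT pool). No paired analysis was possible because the table holds 1 pooled count per genotype and no values per sample. Depth limits Egr3, Nr4a2 and Nr4a3, with 208, 213 and 351 combined counts.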
